A study of Homo sapiens with 12 samples.

Results

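The transcripts of 43 chaperone and co-chaperone genes were examined, out of 60623 genes in the deposited count table. The genes are those of a list of symbols, and no threshold on a measured value enters the list. The list holds the 2 cytosolic HSP90 genes and 7 HSP90 co-chaperones, 3 mitochondrial chaperones, 3 HSP110 and atypical HSP70 genes, 4 small heat shock proteins and 8 J-proteins. It also holds 3 BAG proteins, the 8 subunits of the CCT chaperonin, 2 heat shock factors, and STUB1, UBB and SERPINH1. All 43 were found in the table, and HSPB11, whose symbol is now IFT25, was matched by its GENCODE 29 name. A total of 41 passed the filter on low counts, while HSPB8 and CRYAB did not.

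The comparison covered 4 groups of 3 libraries each. They were SW480 cells given the plasmid pCMV6-HKDC1, SW480 cells given the empty vector pCMV6-Entry, COLO320DM cells given pCMV6-HKDC1, and COLO320DM cells given pCMV6-Entry. SW480 was established from a colon adenocarcinoma, and COLO320DM is an undifferentiated colon carcinoma line that carries MYC on extrachromosomal DNA. The HKDC1 plasmid drives HKDC1, a hexokinase family member, from the viral CMV promoter. Every group received 10 µg of plasmid with Lipofectamine 2000 for 24 h, so no group here shows cells without lipid and plasmid. The share of cells that took up a plasmid is not stated, and each library mixes cells that did and cells that did not. The purpose stated for the series was to look for expression changes that might bear on proliferation. The labels number the replicates 1 to 3 and do not say whether these were separate cultures, so p-values measure the spread between these libraries.

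HSP90 is an abundant dimeric chaperone that uses ATP to mature kinases, steroid receptors and other clients, and its co-chaperones load clients, set the pace of ATP hydrolysis or remodel the client. HSP60 with HSP10 folds proteins inside the mitochondrial matrix, and the ring-shaped CCT complex folds actin, tubulin and other proteins in the cytosol. J-proteins and BAG proteins pass substrates to HSP70 and drive its nucleotide cycle. Many of these genes are targets of the transcription factor HSF1, which binds arrays of inverted GAA units called heat shock elements when unfolded proteins accumulate.

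Library totals ran from 33790733 to 45451279 counts. HKDC1 had 12150 to 14230 CPM (counts per 1000000 counts, here of the library total) in SW480 with the HKDC1 plasmid and 34.1 to 35.5 CPM with empty vector. In COLO320DM it had 6623 to 9858 CPM with the HKDC1 plasmid and at most 1 count per library with empty vector. The epithelial marker EPCAM averaged 527 and 517 CPM in SW480 and 1.94 and 1.81 CPM in COLO320DM (HKDC1 plasmid and empty vector in each). Of 10 colon epithelial markers, 9 reached 1 CPM in SW480 and 7 in COLO320DM, where CDX1 had no count and CDH1 and KRT20 were under 1 CPM. The summed level of these markers was 6324 to 8871 CPM in SW480 libraries and 1600 to 1813 CPM in COLO320DM libraries. CDX2 went the other way, with means of 14.9 and 13.3 CPM in SW480 and 1500 and 1450 CPM in COLO320DM. It made up most of the COLO320DM sum, while KRT8 (3810 and 3750 CPM) and KRT18 (2600 and 2640 CPM) made up most of the SW480 sum. Of the neuroendocrine markers, CHGA, NCAM1 and INSM1 were under 1 CPM in COLO320DM. The leukocyte gene PTPRC averaged 33.8 and 36.6 CPM in COLO320DM, and 4 leukocyte markers summed to 6.37 to 12.7 CPM in SW480 and 32.1 to 41.8 CPM in COLO320DM. The part of these lineage differences in the line comparisons given here was not tested. Replicate 1 stood apart from replicates 2 and 3 in all 4 groups. In a chi-squared test of counts, replicate 1 against another library of its group gave 24.5 to 82.9 per degree of freedom, and replicates 2 and 3 gave 3.18 to 10.1. Results that rest on replicate 1 are therefore given with and without it.

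The 43 genes took 1.39 to 2.00% of all counts in SW480 libraries and 1.16 to 1.29% in COLO320DM libraries. Levels between genes are compared here per length, as CPM scaled by TMM factors and divided by the kilobases of annotated exon. HSP90AB1, the constitutive cytosolic HSP90, reached 653 ± 89 CPM per kb in SW480 with the HKDC1 plasmid and 601 ± 132 with empty vector. In COLO320DM it reached 736 ± 30 CPM per kb with the HKDC1 plasmid and 700 ± 25 with empty vector (SD, n = 3 each, as for all values per kb). HSP90AA1, the inducible cytosolic HSP90, had 687 ± 270 and 574 ± 317 CPM per kb in SW480 with the HKDC1 plasmid and with empty vector, and 350 ± 58 and 323 ± 70 in COLO320DM. The order of the HSP90 pair was thus not separable from the spread in SW480, whereas HSP90AB1 was above HSP90AA1 in every COLO320DM library. The ratio of HSP90AA1 to HSP90AB1 per kb was 1.33, 0.901 and 0.86 in SW480 with the HKDC1 plasmid and 1.25, 0.727 and 0.764 with empty vector (replicates 1, 2 and 3). In COLO320DM it was 0.591, 0.409 and 0.433 with the HKDC1 plasmid and 0.6, 0.395 and 0.397 with empty vector. Replicate 1 had the highest ratio in each group, and the lowest SW480 ratio was above the highest COLO320DM ratio. With the longest annotated transcript as the length, the mean ratio was 1.38 and 1.22 in SW480 and 0.641 and 0.623 in COLO320DM. Per kb of exon the mean ratio in SW480 was 1.03 with the HKDC1 plasmid and 0.913 with empty vector. By these means the order of the pair in SW480 changed with the length used with empty vector only.

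With empty vector, HSPD1 (HSP60, the mitochondrial chaperonin) had 386 ± 76 CPM per kb in SW480 and 237 ± 22 in COLO320DM, below the means of the HSP90 pair. UBB, a polyubiquitin gene, had 323 ± 21 and 360 ± 32. Its mean was below both HSP90 genes in SW480. In COLO320DM it was above that of HSP90AA1 (323 ± 70), though within the spread. CCT4, a CCT subunit, had 247 ± 24 CPM per kb in SW480 and 173 ± 3.6 in COLO320DM. PTGES3 (p23, which stabilises the closed form of HSP90) had 178 ± 38 and 195 ± 19 CPM per kb, a difference within the spread. HSPA4, an HSP110-type nucleotide exchange factor of HSP70, had 91.0 ± 22 CPM per kb in SW480 and 40.1 ± 4.6 in COLO320DM. HSPB1 (HSP27, a small heat shock protein that holds unfolded proteins) had 80.4 ± 3.5 and 48.7 ± 9.8 CPM per kb. DNAJA1, a cytosolic J-protein, had 73.5 ± 40 and 42.7 ± 15 CPM per kb. Far lower were HSF2, a heat shock factor, with 11.5 ± 0.52 CPM per kb in SW480 and 18.7 ± 0.41 in COLO320DM, and BAG3, an HSP70 partner in selective autophagy, with 8.34 ± 3.7 and 12.7 ± 0.97. Each gene named from HSPD1 to BAG3 had the highest mean level per kb of exon of its class over the 12 libraries. In SW480 with empty vector alone, HSF1 had a slightly higher mean (12.1 ± 1.7) than HSF2. The place of CCT4 depends on the length used, as given below.

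Of the small heat shock proteins, HSPB8 was at 0.0545 to 0.229 CPM in SW480 libraries and 0.0238 to 0.14 CPM in COLO320DM libraries. CRYAB (alpha-B crystallin) was at 0.0286 to 0.122 CPM in SW480 libraries and 0.0943 to 0.231 CPM in COLO320DM libraries. Both genes were near the limit of detection, and no difference in them was tested. The reads of some members cannot be told apart from those of overlapping genes on the opposite strand, because the library protocol had no step that marks strand. The exons of STUB1 overlap those of JMJD8 on the opposite strand over 42.5% of their length, and those of BAG2 overlap RAB23 over 42.7%. CCT5 overlaps an antisense gene over 30.8% of its exons and UBB over 29.4%. On the same strand, HSPE1 shares exon sequence with the readthrough gene HSPE1-MOB4, and HSPA14 with MSANTD7. Pseudogenes, picked by their symbols, held counts equal to 4.18% of those of CCT6A, 2.76% of those of DNAJB6 and 1.84% of those of HSPD1.

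Heat shock elements, which HSF1 binds, were looked for in the promoter windows of the members. RefSeq windows on GRCh38.p14 were at hand for 37 of the 43 genes, each covering 250 bases before and 50 bases after the start of transcription. The motif searched was 3 alternating units 2 bases apart, GAANNTTCNNGAA, and on the other strand TTCNNGAANNTTC. It was present in 4 of the 37 windows (10.8%), against 172 of all 35116 windows (0.49%). The stretches that carry it are shown 5′ to 3′ on the strand of the gene, with matched bases in capitals and 8 flanking bases on each side. Positions from the start are those of the match, and coordinates in brackets are those of the whole printed stretch.
CHORDC1: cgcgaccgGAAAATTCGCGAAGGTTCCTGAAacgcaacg
DNAJA1: gccgggcgGAACTTTCCAGAAcgctcggt
DNAJB6: agagccgaGAACCTTCGCGAAggtggggc
SERPINH1: ttccaactTTCCAGAAGTTTCtcgggacg
CHORDC1, an HSP90 co-chaperone with zinc-binding CHORD domains, held 3 overlapping matches that span positions −60 to −38 from the start (chr11:90223079-90223117, minus strand). The DNAJA1 match lay just inside the transcribed sequence, at positions 4 to 16 (chr9:33025268-33025296, plus strand). The match of DNAJB6, a J-protein that suppresses aggregation, lay at −131 to −119 (chr7:157336865-157336893, plus strand). The match of SERPINH1, the collagen chaperone HSP47 of the endoplasmic reticulum, lay at −76 to −64 (chr11:75562169-75562197, plus strand). A shorter motif of 2 inverted units, GAANNTTC or TTCNNGAA, was present in 10 of the 37 windows (27%) and in 13.5% of all windows. A match is a stretch of letters and not a measured binding site, and the windows cover a single start per gene. The window of HSP90AA1, counted among those with no match, lay outside all 10 transcripts that GENCODE 29 gives for the gene, and 7 of these begin 52509 to 55466 bases further in, at starts that were not searched.

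The first question was whether the HKDC1 plasmid changed these transcripts in SW480. HSP90AA1, HSPE1 and DNAJA1 rose and DNAJB5 fell with the HKDC1 plasmid when same-numbered libraries were compared as pairs, and none of these was called when the pairing was ignored. The increases were small beside the spread between replicates: HSP90AA1 differed between plasmids by 0.32 on the log2 scale, and between replicate 1 and the other replicates by 1.09. HSP90AA1 had 5242, 2757 and 2815 CPM with the HKDC1 plasmid and 4927, 1935 and 2173 CPM with empty vector, in replicates 1, 2 and 3. Each library with the HKDC1 plasmid was above its own partner, but the groups overlapped, since replicate 1 with empty vector was higher than replicates 2 and 3 with the HKDC1 plasmid. With the replicate number as a block, edgeR gave a log2 fold change of 0.32 (SE 0.06, adjusted p = 0.0033), and without the block 0.26 (adjusted p = 1).

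**Figure D1:**
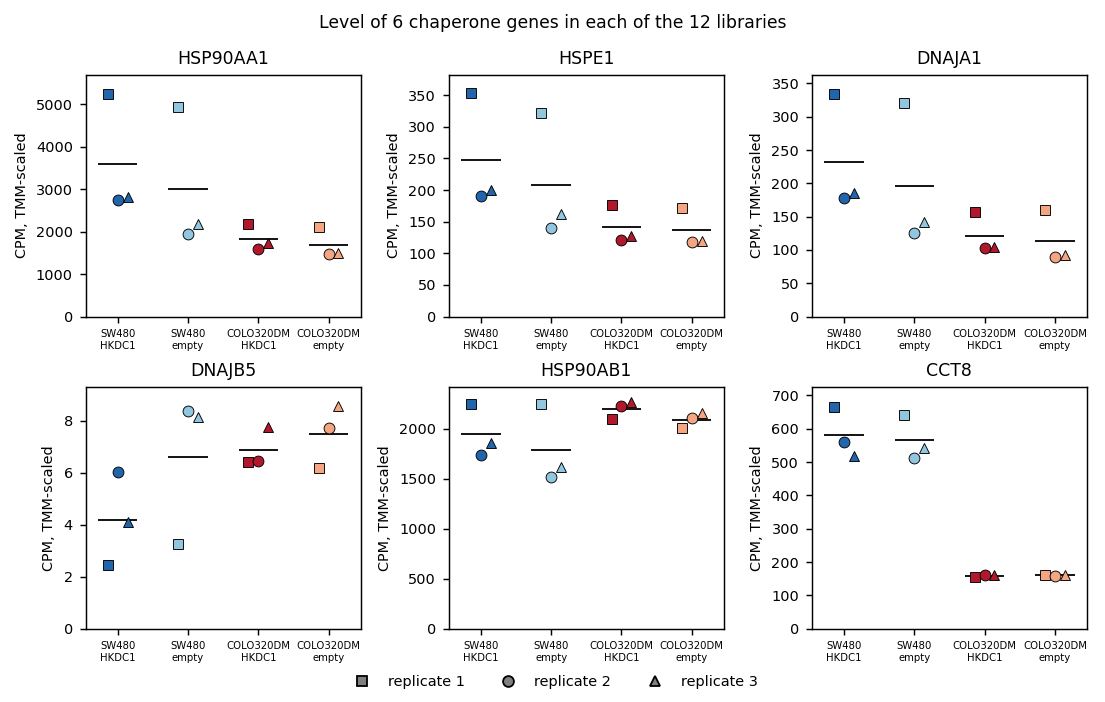
Level of 6 members in each library (y axis: CPM scaled by TMM factors; x axis: the 4 groups; symbols: replicate number; horizontal lines: group mean). In SW480 the squares of replicate 1 lie above the other replicates for HSP90AA1, HSPE1 and DNAJA1 and below them for DNAJB5, with both plasmids, and CCT8 separates the cell lines without overlap.

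HSPE1 (HSP10, the lid of the HSP60 chamber) had 353, 190.5 and 199.9 CPM in SW480 with the HKDC1 plasmid and 321, 140.3 and 162 CPM with empty vector. All 3 pairs were higher with the HKDC1 plasmid, and the groups overlapped through replicate 1. Its log2 fold change with the block was 0.29 (SE 0.06, edgeR adjusted p = 0.00549). DNAJA1 had 334, 178 and 185.5 CPM with the HKDC1 plasmid and 320, 126 and 142 CPM with empty vector, again higher in 3 of 3 pairs with overlapping groups. Its log2 fold change with the block was 0.31 (SE 0.07, edgeR adjusted p = 0.0126). DNAJB5, a J-protein of the DNAJB1 type with low expression here, had 2.44, 6.02 and 4.09 CPM with the HKDC1 plasmid and 3.27, 8.39 and 8.16 CPM with empty vector. It was lower in all 3 pairs, and its log2 fold change with the block was −0.65 (SE 0.13, edgeR adjusted p = 0.00501). For DNAJB5 replicate 1 was the lowest library of both groups, the opposite of the other called members.

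Without the block 0 of 41 members were called in SW480, against 0.0127% of all genes tested (3 of 23684), while 356 genes in all had an unadjusted p under 0.05 and no member did. DESeq2 and limma-voom without the block also called 0 members. With the block, 3 members were called higher, against 0.165% of all genes, and 1 lower, against 0.595%. An unadjusted p under 0.05 with the block was found for 18 of the 41 members and for 2360 of all 23684 genes. HSPH1, an HSP110 nucleotide exchange factor, and AHSA1, an activator of the HSP90 ATPase, had log2 fold changes of 0.34 and 0.22 with an edgeR adjusted p of 0.0551 each. The calls depended on which pair was in the fit. Without pair 1 the block fit called 7 members higher, adding AHSA1, FKBP4, HSPH1 and BAG3, against 0.463% of all genes, and 1 lower, DNAJB5, against 1.76%. Without pair 2 it called none of the 41, against 0.025% of all genes higher and 0.0291% lower. Without pair 3 it called HSPE1 alone higher, against 0.0374% of all genes, and no member lower, against 0.166%. In the fit without the block, leaving out SW480 replicate 1 with the HKDC1 plasmid turned 27 of the 34 positive members negative, among them HSP90AA1 (−0.11), HSPE1 (−0.09) and DNAJA1 (−0.10). Leaving out SW480 replicate 2 with empty vector turned 16 of them negative.

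By class, the median log2 fold change with the block in SW480 was 0.23 for the HSP90 pair, 0.15 for the 7 co-chaperones, 0.08 for the mitochondrial chaperones and 0.16 for the HSP110 and atypical HSP70 genes. It was 0.10 for the 2 small heat shock proteins tested, 0.07 for the J-proteins, 0.15 for the BAG proteins and 0.08 for the CCT subunits, all 8 of which had positive values of 0.04 to 0.12. HSF1, the master regulator of the heat shock response, had −0.13 and HSF2 0.05, neither of which passed the test. Over all 41 members the median was 0.08, against 0.00 for all genes, and 33 were positive, against 49.9% of all genes. Without pair 2 this median was 0.03, and without pair 1 or pair 3 it was 0.10 and 0.11. Taken pair by pair, 23 of 41 members (56.1%) were higher with the HKDC1 plasmid in 3 of 3 pairs, against 14% of all genes passing the filter. The median of the members was 0.05 in pair 1, 0.17 in pair 2 and 0.07 in pair 3. In pairs 2 and 3 alone 28 members were higher in both, against 26.6% of all genes.

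**Figure D2:**
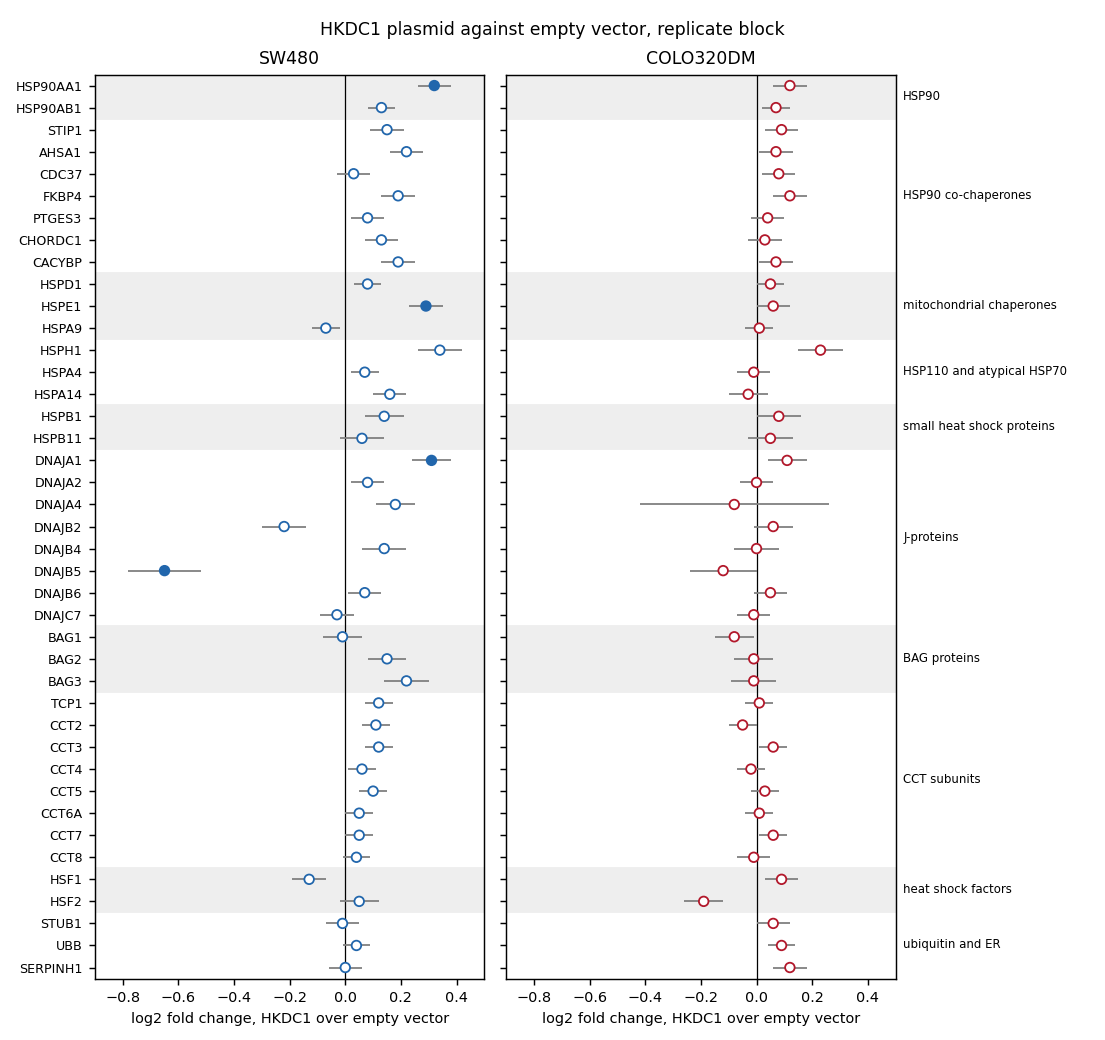
Effect of the HKDC1 plasmid on the 41 members tested (x axis: log2 fold change, HKDC1 plasmid over empty vector, with the replicate block; bars: SE; filled points: edgeR adjusted p under 0.05; left: SW480; right: COLO320DM). HSP90AA1, HSPE1, DNAJA1 and DNAJB5 are filled in SW480, and no point is filled in COLO320DM.

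In COLO320DM no member was called with the HKDC1 plasmid, with or without the block, and fitted differences were small. The share of all genes called was 0.00844% without the block (2 of 23684, with 312 at an unadjusted p under 0.05) and 0.076% with it. Of the 41 members 1 had an unadjusted p under 0.05 without the block and 3 had one with it, where 1289 of all genes had one. DESeq2 called 0 members with or without the block. HSP90AA1 had 2178, 1599 and 1727 CPM with the HKDC1 plasmid and 2119, 1463 and 1505 CPM with empty vector, higher in each pair, with a log2 fold change of 0.12 (SE 0.06, edgeR adjusted p = 0.914 with the block). HSPE1 had 176, 121 and 128 CPM with the HKDC1 plasmid and 171, 118 and 120 CPM with empty vector. DNAJA1 had 157, 102 and 104 CPM with the HKDC1 plasmid and 161, 89.1 and 91.97 CPM with empty vector. In both genes replicate 1 was the highest of its group, by more than the plasmid groups differed. DNAJB5 had 6.42, 6.47 and 7.76 CPM with the HKDC1 plasmid and 6.18, 7.72 and 8.56 CPM with empty vector, and these ranges overlapped.

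The largest positive value in COLO320DM was that of HSPH1, 0.23 (SE 0.08, edgeR adjusted p = 0.769 with the block), and the most negative was that of HSF2, −0.19 (SE 0.07, adjusted p = 0.653). The median over the 41 members was 0.05, with 27 positive, and 12 members (29.3%) were higher in 3 of 3 pairs, against 13.3% of all genes. The 8 CCT subunits lay between −0.05 and 0.06.

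The difference between the plasmid effects, SW480 minus COLO320DM, was not called for any member. Without the block 0.00844% of all genes were called (2, with 379 at an unadjusted p under 0.05, 1 of them a member), and with the block 0.0422%. The smallest edgeR adjusted p of a member was 0.395 with the block. An unadjusted p under 0.05 with the block was found for 9 of 41 members and for 1801 of 23684 genes. DESeq2 called 0 members. For HSP90AA1 the difference was 0.20 and for DNAJB5 −0.53 on the log2 scale with the block. Calls in SW480 and none in COLO320DM therefore do not show that the effect of the plasmid differed between the lines.

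Replicates differed more than plasmids did. Because this split was noticed in the data, its values are a description with no test. In SW480 with the HKDC1 plasmid the members took 2.00% of counts in replicate 1 and 1.57 and 1.58% in replicates 2 and 3. With empty vector they took 1.97% in replicate 1 and 1.39 and 1.46% in replicates 2 and 3. The log2 CPM of replicate 1 minus the mean of replicates 2 and 3, averaged over both plasmids, had a median of 0.43 over the 41 members and of −0.01 over all genes. Of the members, 35 were higher in replicate 1 with both plasmids, against 38% of all genes, and 15 were higher by over 0.5, against 6.2% of all genes. With CPM over the library total in place of TMM scaling, an alternative chosen after the data were seen, the median was 0.29 and 8 members exceeded 0.5.

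HSP90AA1 had the largest of these differences in SW480 (1.09), followed by DNAJA1 (1.07), HSPE1 (0.97), HSPH1 (0.93) and FKBP4 (0.93), a peptidyl-prolyl isomerase that binds HSP90 and steroid receptors. BAG3 was higher by 0.82. AHSA1 was higher by 0.70, CACYBP, a SIAH1-binding protein, by 0.69, and STIP1 (HOP, the bridge between HSP70 and HSP90) by 0.61. All 7 HSP90 co-chaperones were higher with both plasmids, the smallest difference being that of CDC37, the kinase-loading co-chaperone, at 0.44. All 8 CCT subunits were higher as well, by 0.20 to 0.58. DNAJB5 was lower by 1.06 on the log2 scale (−1.06), and SERPINH1 was also lower (−0.72), as were DNAJB2 (−0.40), a J-protein with ubiquitin-binding motifs, HSF1 (−0.28) and HSPB1 (−0.15). HSPA9 (mortalin, the mitochondrial HSP70) had 0.07 with the HKDC1 plasmid and −0.07 with empty vector.

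SERPINH1 had 51.9, 80.6 and 96.2 CPM in SW480 with the HKDC1 plasmid and 53.9, 85.5 and 87.8 CPM with empty vector. Its replicate 1 was the lowest library of each group, and that of DNAJA1 and of CHORDC1 was the highest. SERPINH1, DNAJA1, CHORDC1 and DNAJB6 are the members with a heat shock element match, and any relation of the match to the replicates was not tested. CHORDC1 had 195, 133 and 123 CPM with the HKDC1 plasmid and 178, 111 and 122 CPM with empty vector. DNAJB6 had 108, 84.8 and 86.0 CPM with the HKDC1 plasmid and 106, 78.3 and 83.1 CPM with empty vector, and replicate 1 was again highest.

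In COLO320DM the same split was smaller. The median over the members was 0.16, against −0.01 over all genes. With both plasmids 28 of 41 members were higher in replicate 1, against 32.8% of all genes, and 2 were higher by over 0.5, DNAJA1 (0.71) and HSPE1 (0.51), against 1.14% of all genes. HSPH1 (0.46) and HSP90AA1 (0.45) came next. HSP90AB1 differed between the lines in this respect, at 0.42 in SW480 and −0.09 in COLO320DM, and BAG3 had 0.82 in SW480 and −0.18 in COLO320DM. Across the 41 members, replicate differences in SW480 and COLO320DM had a Pearson r of 0.76 and a Spearman rho of 0.70, against 0.22 and 0.25 across all genes. Genes are not independent replicates, and the points share the scaling of their libraries.

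The members called with the HKDC1 plasmid in SW480 were also among those that differed most between replicates, in the same direction. The same libraries enter both comparisons, so the values are set side by side with no relation drawn. HSP90AA1 had a plasmid difference of 0.51 in pair 2 and 0.37 in pair 3 beside a replicate difference of 1.09. For DNAJA1 these values were 0.50, 0.39 and 1.07, for HSPE1 0.44, 0.30 and 0.97, and for DNAJB5 −0.45, −0.91 and −1.06. For HSP90AB1 they were 0.20, 0.20 and 0.42, and for CCT8 0.13, −0.07 and 0.29. What distinguished replicate 1 is not given in the labels, and its cause was not tested.

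**Figure D3:**
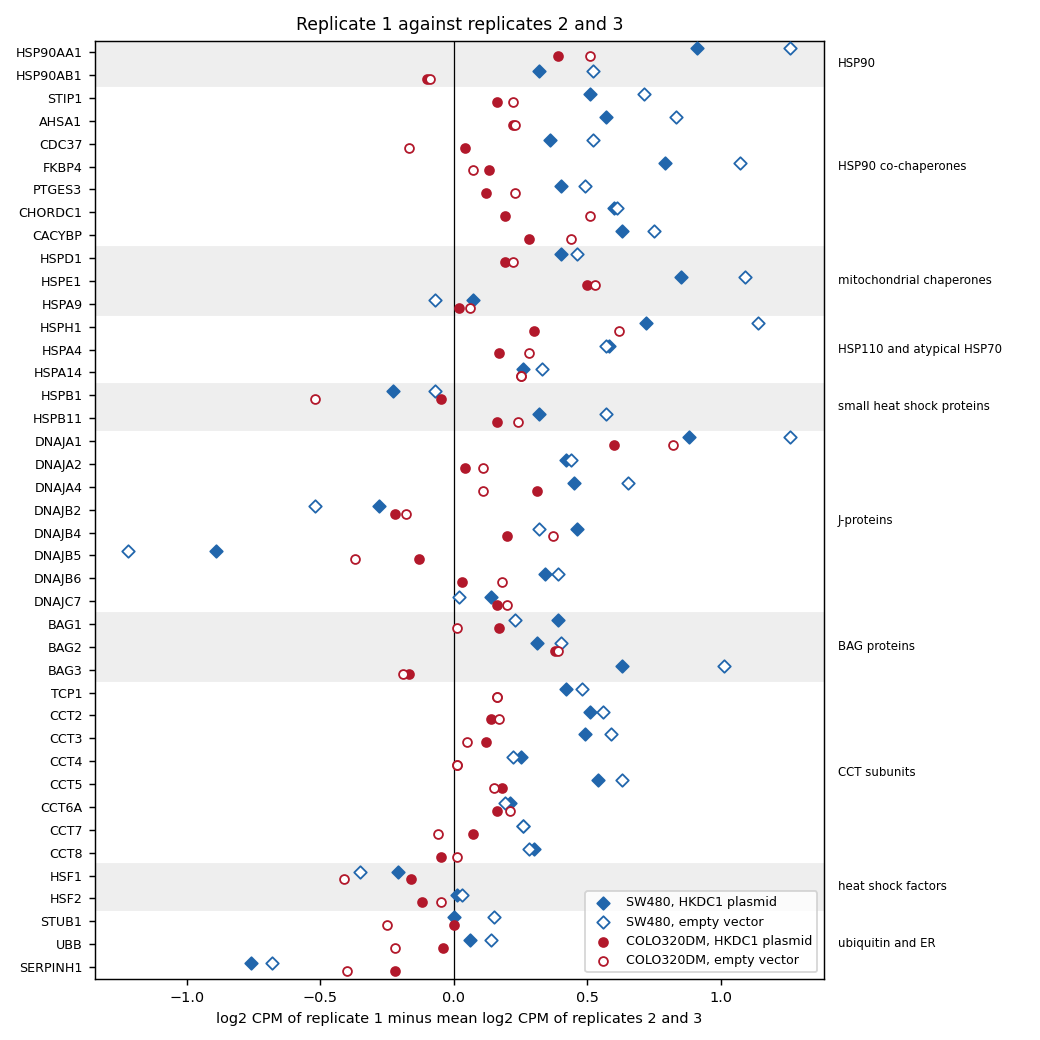
Difference between replicate 1 and replicates 2 and 3 for the 41 members (x axis: log2 CPM of replicate 1 minus the mean log2 CPM of replicates 2 and 3; diamonds: SW480; circles: COLO320DM; filled: HKDC1 plasmid; open: empty vector). In SW480 the HSP90 pair, the co-chaperones and the CCT subunits lie to the right of 0 with both plasmids, and DNAJB5 and SERPINH1 lie to the left.

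The cell lines were compared with empty vector in both. Most CCT subunits, HSPA4, HSPA14 and 4 of 7 HSP90 co-chaperones were higher in SW480 than in COLO320DM, and DNAJB4, HSF2 and BAG3 were lower. Of 41 members 21 were called higher and 3 lower by edgeR, where 37.3% of all genes were called higher and 34.3% lower. With so many genes called, a lack of overlap between the lines describes a gene and marks nothing particular to the members. The share of all genes without overlap was not counted. The median log2 fold change of the members was 0.52, against 0.04 over all genes. Without SW480 replicate 1 it was 0.29, and 19 members were called higher and 6 lower, where 8942 of 24263 genes were called higher and 8270 lower. The lower calls added were HSP90AB1 (−0.41), HSPB11 (−0.43) and CCT3 (−0.46). The lines differ in every respect, including any difference in when they were handled, so cell line and batch cannot be told apart. In such bulk samples, a difference per cell and a difference in the share of cells that express a gene cannot be told apart either.

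Of the 8 CCT subunits 7 were called higher in SW480. CCT8 had 641, 514 and 543 CPM in SW480 and 161, 159 and 159.8 CPM in COLO320DM, a log2 fold change of 1.82 (SE 0.11, edgeR adjusted p = 6.96e-09). CCT6A had 829, 711 and 746 CPM in SW480 and 242, 209 and 209 CPM in COLO320DM (1.79, SE 0.11, edgeR adjusted p = 5.82e-09). CCT5 had 1076, 668.5 and 725 CPM in SW480 and 365, 323 and 334 CPM in COLO320DM (1.27, SE 0.18, edgeR adjusted p = 3.11e-05). None of these 3 overlapped between the lines. CCT2 (0.94), TCP1 (0.53), CCT7 (0.53) and CCT4 (0.52) were called with smaller values. CCT3 had 565, 361 and 387 CPM in SW480 and 530.4, 507 and 516 CPM in COLO320DM, with a log2 value of −0.24 (SE 0.17, edgeR adjusted p = 0.204) and overlapping libraries.

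Since CCT is built from its 8 different subunits in equal number, their levels were also set side by side per kb of exon. By this measure CCT4 was the highest and CCT7 the second in all 4 groups, but with the longest annotated transcript as length CCT7 was the highest in all 4 and CCT4 the fourth in SW480 and the third in COLO320DM. With either length the lowest was TCP1 in SW480, with 92.5 ± 16 CPM per kb of exon with the HKDC1 plasmid and 85.5 ± 18 with empty vector, and CCT8 in COLO320DM, with 47.7 ± 1.1 and 47.9 ± 0.25. The highest subunit exceeded the lowest 2.79 and 2.89 times in SW480 and 3.58 and 3.6 times in COLO320DM. With the longest transcript as length and empty vector these ratios were 2.32 and 3.36. CCT3 was 6th of 8 in SW480 and 3rd in COLO320DM per kb of exon, and CCT8 was 4th in SW480 and last in COLO320DM. With empty vector in COLO320DM, the means of CCT5 (60.4 ± 3.9), TCP1 (59.4 ± 4.0) and CCT6A (57.2 ± 4.9) lay closer together than their SDs. In SW480 with empty vector, the means of CCT4 and CCT7 differed by more than their SDs, as did those of CCT6A and CCT8. All other neighbours in the order had means that differed by less than the larger SD. The SDs are between libraries, and the subunits were measured in the same libraries. A gap below an SD therefore does not show that the order varied between libraries.

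**Figure D4:**
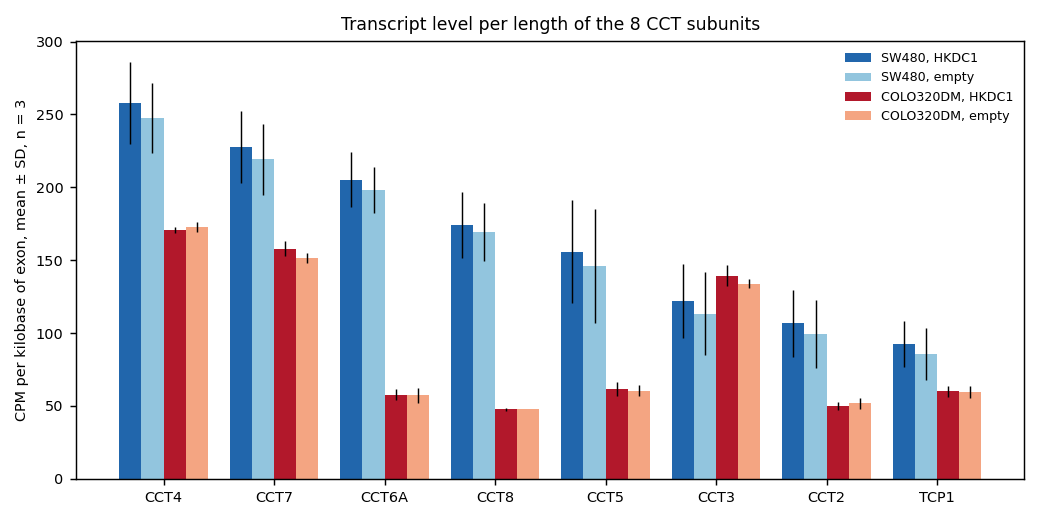
Level of the 8 CCT subunits per length (y axis: CPM per kilobase of exon; bars: mean of 3 libraries; error bars: SD; x axis: subunits in the order of their level in SW480 with empty vector). CCT4 has the highest bars in all 4 groups with this length, where the longest transcript as length would put CCT7 first, and CCT6A, CCT8 and CCT5 differ most between the lines.

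HSP90AA1 had 4927, 1935 and 2173 CPM in SW480 with empty vector and 2119, 1463 and 1505 CPM in COLO320DM, and the lowest SW480 libraries overlapped the highest of COLO320DM. Its log2 fold change was 0.83 (SE 0.33, edgeR adjusted p = 0.0395), and without SW480 replicate 1 it was 0.29 (adjusted p = 0.335). Leaving out COLO320DM replicate 2 or 3 also ended the call (adjusted p = 0.118 and 0.119). HSP90AB1 had 2242, 1512 and 1615 CPM in SW480 and 2005, 2103 and 2153 CPM in COLO320DM, which overlap, with a log2 value of −0.22 (SE 0.14, adjusted p = 0.179).

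Of the 7 HSP90 co-chaperones, CHORDC1, STIP1, AHSA1 and CDC37 were called higher in SW480. CHORDC1 had 178, 111 and 122 CPM in SW480 and 75.8, 54.5 and 51.9 CPM in COLO320DM (log2 fold change 1.17, SE 0.21, edgeR adjusted p = 0.000202). STIP1 had 473.5, 277 and 300.1 CPM in SW480 and 229, 196 and 197 CPM in COLO320DM (0.76, SE 0.19, adjusted p = 0.00291). Without SW480 replicate 1 the STIP1 value was 0.49 (adjusted p = 0.0065). Neither gene overlapped between the lines. AHSA1 had 257, 139 and 150.2 CPM in SW480 and 129, 109 and 111 CPM in COLO320DM (0.65, adjusted p = 0.0146), and its value without SW480 replicate 1 was lower (0.33, adjusted p = 0.0669). Without COLO320DM replicate 2 its adjusted p was 0.0505. CDC37 had a log2 fold change of 0.44, which was 0.25 without SW480 replicate 1 (adjusted p = 0.0593) and 0.38 without COLO320DM replicate 1 (adjusted p = 0.0572). FKBP4 (0.24), CACYBP (0.20) and PTGES3 (−0.13) did not pass the test, and PTGES3 had 751.5, 504 and 564 CPM in SW480 and 737, 630 and 625 CPM in COLO320DM.

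Among the mitochondrial chaperones, HSPD1 had 1950, 1363 and 1466 CPM in SW480 and 1080, 912.5 and 937 CPM in COLO320DM (log2 fold change 0.71, SE 0.15, edgeR adjusted p = 0.000896). HSPA9 had 631, 664 and 664 CPM in SW480 and 497, 476.5 and 478 CPM in COLO320DM (0.43, SE 0.08, adjusted p = 0.000212). HSPE1, which is transcribed from the same divergent promoter region as HSPD1, had a similar log2 value of 0.61 with a wider error (SE 0.31) and did not pass the test (adjusted p = 0.0922). HSPA4 had 594, 386.5 and 413 CPM in SW480 and 232, 189.6 and 193 CPM in COLO320DM (1.18, SE 0.18, adjusted p = 6.49e-05). HSPA14, a ribosome-associated atypical HSP70, had 59.3, 46.6 and 47.3 CPM in SW480 and 24.0, 20.2 and 20.1 CPM in COLO320DM (1.25, SE 0.13, adjusted p = 1.2e-06). HSPD1, HSPA9, HSPA4 and HSPA14 did not overlap between the lines. HSPH1 had a log2 value of 0.50 that did not pass the test (adjusted p = 0.153). HSPB1 was called higher in SW480, with 117, 119 and 127 CPM in SW480 and 56.7, 78.5 and 84.8 CPM in COLO320DM (0.72, adjusted p = 0.000368), while HSPB11 had −0.21 (adjusted p = 0.259).

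**Figure D5:**
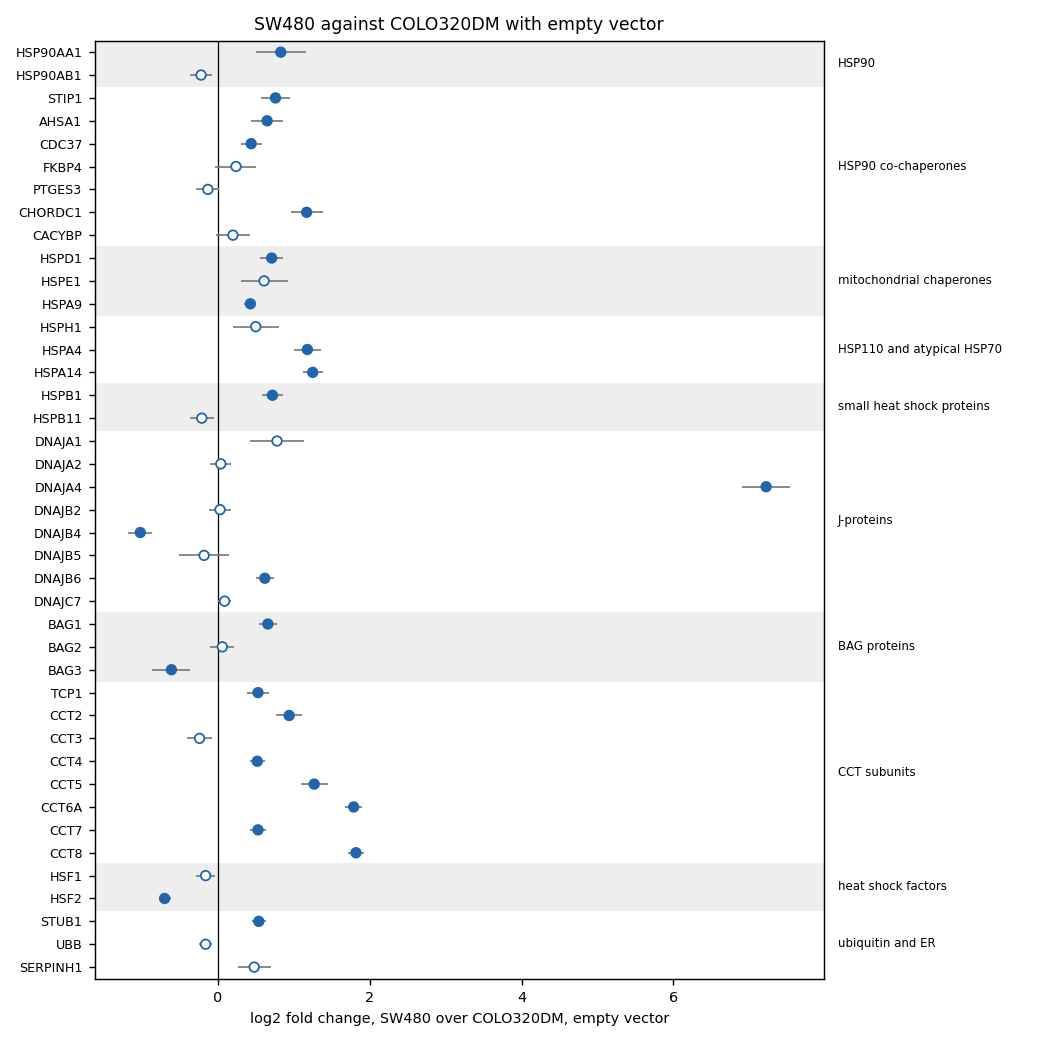
Difference between the lines with empty vector for the 41 members tested (x axis: log2 fold change, SW480 over COLO320DM; bars: SE; filled points: edgeR adjusted p under 0.05). DNAJA4 lies apart at 7.22, 7 of 8 CCT subunits are filled to the right of 0, and DNAJB4, HSF2 and BAG3 are filled to the left.

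The J-proteins diverged. DNAJA4, a close relative of DNAJA1, had 54.5, 34.8 and 34.4 CPM in SW480 and 0.306, 0.143 and 0.37 CPM in COLO320DM. The COLO320DM values rest on 13, 6 and 16 counts. Its log2 fold change of 7.22 (SE 0.32, edgeR adjusted p = 2.97e-10) was the largest among the members. With the HKDC1 plasmid DNAJA4 had 56.2, 40.5 and 41.7 CPM in SW480 and 0.366, 0.14 and 0.26 CPM in COLO320DM. DNAJB4, a J-protein of the DNAJB1 type, was lower in SW480, with 14.3, 11.99 and 10.8 CPM in SW480 and 29.6, 23.0 and 22.6 CPM in COLO320DM (−1.02, SE 0.16, adjusted p = 7.62e-05). DNAJB6 had 106, 78.3 and 83.1 CPM in SW480 and 62.7, 55.3 and 55.2 CPM in COLO320DM (0.62, SE 0.12, adjusted p = 0.000491). DNAJA1 had a log2 value of 0.78 with an SE of 0.36 and did not pass the test (adjusted p = 0.0676), and DNAJA2, DNAJB2, DNAJB5 and DNAJC7 had values of −0.18 to 0.09.

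BAG1, which links HSP70 to the proteasome, had 44.0, 35.2 and 39.6 CPM in SW480 and 25.3, 24.5 and 25.6 CPM in COLO320DM (log2 fold change 0.66, edgeR adjusted p = 0.000284). BAG3 had 34.7, 17.03 and 17.02 CPM in SW480 and 31.7, 36.4 and 36.4 CPM in COLO320DM (−0.61, adjusted p = 0.0441), and leaving out any of these libraries except SW480 replicate 1 ended the call. Without SW480 replicate 1 the BAG3 value was −1.02. HSF2 had 31.4, 29.4 and 32.1 CPM in SW480 and 49.3, 50.3 and 51.5 CPM in COLO320DM, without overlap (−0.70, SE 0.08, adjusted p = 3.41e-06). HSF1 had a value of −0.16 that did not pass the test (adjusted p = 0.307). STUB1 (CHIP, a ubiquitin ligase that acts on chaperone clients) had 120.5, 105 and 112 CPM in SW480 and 68.7, 83.5 and 80.1 CPM in COLO320DM (0.54, adjusted p = 0.000118), within the limit set by its overlap with JMJD8. UBB had 538.5, 473 and 507 CPM in SW480 and 509, 578 and 607 CPM in COLO320DM (−0.16, adjusted p = 0.138), with overlapping libraries. SERPINH1 had 0.48 (adjusted p = 0.0648).

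Related genes outside the 43 were counted from 5 further lists of 49 genes, all of which passed the filter. Of 7 HSP70 genes with DNAJB1, all had positive values with the HKDC1 plasmid in both lines, with a median with the block of 0.47 in SW480 and 0.35 in COLO320DM. HSPA6, an inducible HSP70, was called higher in SW480 with the block (2.97, SE 0.20, edgeR adjusted p = 6.19e-13) and without it (2.95, adjusted p = 0.00186). DNAJB1, the main J-protein partner of inducible HSP70, had 287, 174 and 190.2 CPM in SW480 with the HKDC1 plasmid and 257, 131 and 141.5 CPM with empty vector. It was called with the block in SW480 (0.33, adjusted p = 0.00167) and in COLO320DM (0.35, adjusted p = 0.00698). None of the 14 other HSP90 co-chaperones, 11 genes of mitochondrial folding and proteolysis or 10 prefoldin subunits and CCT partners was called for the plasmid in either line, with medians of −0.04 to 0.03. Of 7 actins and tubulins, which CCT folds, ACTG1 was called lower in SW480 with the block (−0.24, adjusted p = 0.0292), with 1593, 1362 and 1397 CPM with the HKDC1 plasmid and 1669, 1727 and 1734 CPM with empty vector. Between the lines with empty vector, 9 of the 14 other co-chaperones were called higher in SW480 and 3 lower, with a median of 0.60. Of all genes, 37.3% were called higher and 34.3% lower, with a median of 0.04. The 10 prefoldin and CCT partners had 4 called higher and 3 lower, with a median of −0.01, near the shares of all genes.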

How the data were processed

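The authors deposited raw counts per gene for all 12 libraries in 1 table with Ensembl identifiers, and per the labels' protocols the libraries were poly-A selected and random primed, with no step that marks strand. Per the submitters' processing notes, HISAT2 2.1.0, limma and GRCh38 were used. The read counter and strand setting are not given in the sources used here. The member genes, the further lists, the tests and the rule for named genes were chosen with earlier results of these data known. That rule prints every library for members called for the plasmid, the highest member of each class per length, up to 3 members per class called between the lines, and members under 1 CPM in a group.

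All 12 libraries entered 1 edgeR 4.0.16 quasi-likelihood model in R 4.3.3 with 4 group means, TMM factors, filterByExpr (minimum count 10, minimum total 15) and robust dispersions, which kept 23684 genes. Benjamini-Hochberg adjusted p-values over all of these genes were called under 0.05. SE was taken as the size of a fitted log2 value over the root of its F statistic. CPM are scaled by TMM, apart from those of HKDC1 in the check of the plasmid. The model was tested on simulated data. Without a block the biological coefficient of variation was 0.157 with 8 residual degrees of freedom. With the replicate number within a line as a block, it was 0.0597 with 4. The pairing was checked first: pairs with the same number had correlated deviations from their group means, with r of 0.87, 0.66 and 0.48 in SW480 and of 0.63, 0.38 and 0.30 in COLO320DM. Replicates 2 and 3 correlated across numbers at 0.69 and 0.56 in SW480 and at 0.33 and 0.33 in COLO320DM. The block therefore mainly separates replicate 1, and pairs 2 and 3 may not be independent. Counts per pair and per replicate use log2 of CPM plus 0.5. Alternatives were RLE and upper-quartile scaling, no filter, DESeq2 1.42.0, limma-voom (limma 3.58.1), each line alone, and leaving out each library or pair. Promoter sequences are those of RefSeq on GRCh38.p14.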

Additional observations from a re-analysis of the deposited data

Results flagged for a closer look

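HSPA6, a stress-inducible HSP70 gene outside the 43 members, was the only gene of the lists counted here whose plasmid effect differed between the lines by a test of the difference itself. It had 6.43, 5.87 and 7.99 CPM in SW480 with the HKDC1 plasmid and 1.30, 0.572 and 0.748 CPM with empty vector. In COLO320DM it had 1.78, 1.68 and 2.23 CPM with the HKDC1 plasmid and 0.683, 1.36 and 1.02 CPM with empty vector. The difference between the plasmid effects, SW480 minus COLO320DM, was 2.06 on the log2 scale with the replicate block (SE 0.31, edgeR adjusted p = 0.000525). Without the block it was also 2.06 but was not called (adjusted p = 1). No library of a group of 3 was tested as an outlier.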

How the results depend on the processing

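Of the plasmid results without a replicate block, no member was called under any scaling, filter or tool tried, nor with single libraries left out. Pairing by a replicate block raised the calls over all genes to 180 in SW480, 18 in COLO320DM and 10 for the difference between the lines, against 3, 2 and 2 without it. With DESeq2 and the block these were 98, 13 and 13. Members called in SW480 with the block were 3 higher and 1 lower, and with DESeq2 4 higher (AHSA1 added) and 1 lower. Leaving out 1 pair gave 0 to 7 members higher and 0 to 1 lower, with 13 to 537 genes called in all in SW480 and 7 to 18 in COLO320DM. A single library left out without the block gave 3 to 5 genes in SW480. The median of the members in COLO320DM was 0.05 with RLE scaling or DESeq2, 0.06 with upper-quartile scaling or with DESeq2 and the block, 0.04 with no filter, −0.02 to 0.07 with 1 library left out, and 0.03 to 0.04 with 1 pair left out (0.03 to 0.11 in SW480). With 1 library left out it was −0.07 to 0.25 in SW480, and −0.10 to 0.22 for the difference between the lines. Without the block, 3 to 27 of the 41 members in SW480 and 6 to 15 in COLO320DM turned sign with 1 library left out. In SW480 they included HSP90AA1 (−0.11 to 0.79), HSPE1 (−0.09 to 0.69), DNAJA1 (−0.10 to 0.77), HSPH1 (−0.00 to 0.74) and AHSA1 (−0.02 to 0.50). Between the lines, 2 to 6 members were called lower with 1 library left out, where 7626 to 8270 of all genes were called lower. HSP90AA1 also lost its call between the lines with no filter, DESeq2 or limma-voom, as did AHSA1 and BAG3 with no filter. With the longest transcript as length, HSP90AA1 over HSP90AB1 was 1.38 and 1.22 in SW480 and 0.641 and 0.623 in COLO320DM (HKDC1 plasmid, then empty vector), and the highest CCT subunit over the lowest was 2.32 in SW480 and 3.36 in COLO320DM with empty vector. The shorter heat shock motif matched 27% of member promoters in place of 10.8%. With CPM over the library total, the median replicate 1 difference was 0.29 in SW480 and 0.14 in COLO320DM, with 8 and 1 members over 0.5. Apart from the stated construction of each setting, the cause of these changes was not tested. Counts of HSPB8, CRYAB and, in COLO320DM, DNAJA4 were too low to detect a difference between plasmids.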
